A study of Mus musculus with 6 samples.

Results

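The nuclear genes for the mitochondrial respiratory chain were examined in mouse lung endothelial cells (ECs) after unilateral pneumonectomy (PNX), a surgery that takes out 1 lung and leaves the other to grow. Members were all gene symbols in the count files that carry the names of subunits of complexes I to V or of the cytochromes c1 and c (Nduf, Sdh, Uqcr, Cox4 to Cox8, Atp5, Cyc1 and Cycs). The rule reads names only. The name rule found 94 of 24063 symbols. Complex I had 36 members, complex II 4, complex III 9 including Cyc1, complex IV 20, complex V 15 and cytochrome c 1. The remaining 9 symbols matched the names but encode assembly or associated factors (Ndufaf1 to Ndufaf7, Atp5s and Atp5sl) and are given separately. Ndufa4 and Ndufa4l2 were placed with complex IV, where the Ndufa4 protein is found.

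ECs were isolated from lungs of male C57BL6 mice with magnetic beads carrying an antibody to CD31, and their mRNA was sequenced. The sham group had a sham operation and the PNX group was taken on day 7 after PNX, with 3 libraries per group and 2 mice pooled in each library. No mouse in these libraries carried a mutant allele or received a drug as a treatment under study. For the surgery the paper gives anesthesia with ketamine and xylazine. The labels give an age of 8 weeks, whereas the methods give an older age, and the bead isolation enriches ECs without removing all other cells. The labels mark replicates 1 and 2 of each group as re-used and replicate 3 not. This mark was read as an earlier record (replicates 1 and 2) and a later one (replicate 3), names that the labels do not use. Total counts were 65763553 to 81282871 in the earlier libraries and 29526989 to 33374216 in the later ones. Replicates 1 and 2 differed by little more than counting error, with a chi-square per degree of freedom of 1.75 in sham and 1.57 in PNX, against 67.9 to 86.4 for pairs with replicate 3. They were therefore summed and counted as 1 sample, which leaves n = 2 samples per group. The 2 samples of a group come from different records. Without a block for the record, the p-values therefore rest on the spread between records, where differences between mice and between records cannot be told apart. With such a block they rest on how far the PNX difference varied between the records. The 8 endothelial markers (Pecam1, Cdh5 and others) summed to 8179, 8258 and 7012 CPM (counts scaled by library size) in sham against 7155, 7186 and 6399.5 CPM in PNX, lower after PNX in both records. Their median log2 fold change was −0.16. In 4 of 8 all PNX libraries were below all sham libraries, against 17.9% of all symbols tested. In 1 of 8 they were all above, against 18.8%. Markers of alveolar type 2, club and ciliated cells were also present and were lower after PNX in every library.

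The respiratory chain sits in the inner mitochondrial membrane. Complexes I (NADH dehydrogenase) and II (succinate dehydrogenase) pass electrons to ubiquinone, complex III passes them on to cytochrome c, and complex IV (cytochrome c oxidase) passes them to oxygen. Complexes I, III and IV pump protons, and complex V (ATP synthase) uses the gradient to make ATP. Most subunits are encoded in the nucleus and a few in the mitochondrial genome, whose transcripts are not analysed here. Lung ECs are often described as strongly glycolytic, and their mitochondria are known also for roles in signaling and biosynthesis during proliferation.

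Promoters of these genes are known for sites of nuclear respiratory factor 1 (NRF1), the ETS-family factor GABP and YY1. RefSeq promoter windows (build GRCm38.p6, 250 bases before to 50 after a start) were given for 77 of 94 members, with 83 windows. On either strand, 15.7% of these windows held the letters GCATGCGC, an NRF1 motif, against 2.71% of all 32851 windows of the same length. CCGGAAG, an ETS motif, was in 20.5% against 8.86%, and AAGATGGCG, a YY1 motif, in 10.8% against 1.40%. These matches describe the letters in the windows and do not show binding. Whether they go with the difference after PNX was not tested. No match was found for Cox5a, Atp5g1, Atp5o and Atp5g3, called higher together with Cycs in a fit given below. Some members had no window. Stretches of 80 bases upstream of 4 gene starts are shown because they hold the NRF1 letters, marked in capitals (10 bases where matches on both strands overlap), in Cycs, the member with the highest fold change after PNX among the subunits, and in 3 subunits of complexes IV and V. All lie on the minus strand, at chr6:50566570-50566649 (Cycs), chr15:102671048-102671127 (Atp5g2), chr5:108434400-108434479 (Atp5k) and chr5:115349041-115349120 (Cox6a1).
Cycs: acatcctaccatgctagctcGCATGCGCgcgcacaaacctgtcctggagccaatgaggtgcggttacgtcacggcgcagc
Atp5g2: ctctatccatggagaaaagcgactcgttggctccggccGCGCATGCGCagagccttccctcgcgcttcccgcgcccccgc
Atp5k: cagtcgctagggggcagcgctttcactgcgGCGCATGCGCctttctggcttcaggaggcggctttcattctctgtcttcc
Cox6a1: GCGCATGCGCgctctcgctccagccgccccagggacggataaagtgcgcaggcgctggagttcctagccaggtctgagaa

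Nearly the whole set was detected in the isolated cells, and the members differed widely in level. Other cell types remained in the isolates, so these levels are not those of ECs alone. Levels between genes are given as TPM (a level scaled by transcript length and by library) of the transcript of each gene with the highest total, because the counts deposited for several transcripts of a gene were often nearly equal, as if a shared read had been counted on each. For Cox6b2, for example, 6 transcripts had 306 counts each in sham replicate 1. The median member TPM over the 6 libraries was 158 in complex V, 129 in complex IV, 109 in complex III, 99.7 in complex II and 67.9 in complex I, and the ranges of these complexes overlapped. Atp5b, the catalytic beta subunit of ATP synthase, was highest at 501 TPM. Cox4i1, the common form of COX subunit 4, followed at 404 TPM. In complex III the highest was Uqcrh, the hinge protein, at 249.3 TPM, in complex I Ndufa3 at 158 TPM, and in complex II Sdha, the flavoprotein that oxidizes succinate, at 119 TPM. Cycs, the soluble electron carrier between complexes III and IV, had 17.7 TPM, and the assembly and associated factors had 4.94 to 22.8 TPM. At the low end, Cox8c had 0 counts in all 6 libraries, where the limit that a count of 0 allows (3 counts) is 0.0372 to 0.101 CPM, and Cox7b2 was listed at 0.130 TPM in sham replicate 2, 0.0695 TPM in PNX replicate 2 and 0 elsewhere. Both are isoforms known mainly from testis, and they were the only members removed by the filter on low counts, so that 92 of 94 were tested.

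The comparison of PNX with sham asks how gene expression in the isolated cells differs while the remaining lung grows. Most respiratory chain genes had a slightly higher level after PNX. The median log2 fold change of the 92 members tested was 0.17, a ratio of 1.12, whereas that of all 16598 symbols tested was −0.01. Without sham replicate 3 the members' median was 0.10, and without PNX replicate 3 it was 0.21. The fitted log2 fold change lay above 0 for 73 of 92 members, against 48% of all symbols. The members' share of all counts was 0.395%, 0.396% and 0.398% in the sham libraries and 0.451%, 0.444% and 0.426% in the PNX libraries, with means of 0.396% ± 0.00179 and 0.437% ± 0.0155 (SD, n = 2 samples). The lowest PNX library was above the highest sham library. The ratio of the PNX share to the sham share was 1.13 within the earlier record and 1.07 within the later one. The plot of cumulative shares shows the members' curve displaced to the right of that of all symbols over most of its length.

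**Figure D1:**
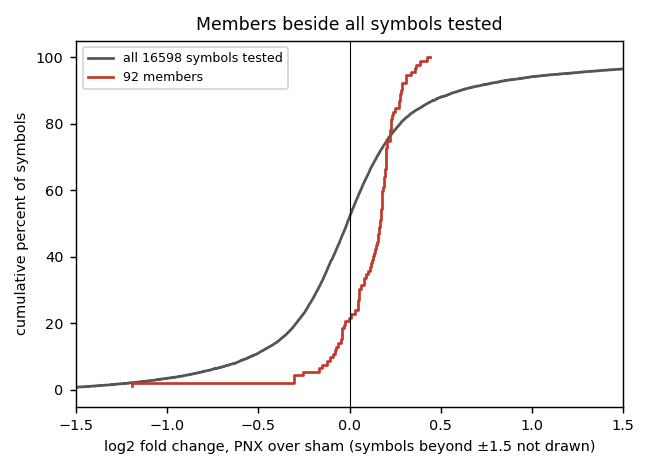
Cumulative percent of symbols (y) by fitted log2 fold change, PNX over sham (x), for all 16598 symbols tested (grey) and the 92 members (red). The medians are −0.01 and 0.17, and the left end of the red curve holds the few lower members such as Cox6a2.

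No single member passed the test in the 4 samples without a block. With edgeR's quasi-likelihood test and Benjamini-Hochberg adjustment, 0 of 92 members were called at an adjusted p under 0.05, as were 0% of all symbols in each direction, and the lowest adjusted p of a member was 0.336. At an unadjusted p under 0.05, 3 members were higher (Cox5a, Atp5g1 and Atp5o) and 1 was lower (Cox6a2), beside 7.54% and 4.96% of all symbols. DESeq2 also called 0 members, where it called 4.17% of all symbols higher and 1.28% lower, and limma-voom called 0 members and 0% of all symbols. The difference between records was shared by the groups, as described in the processing notes, and with the record as a replicate block edgeR called 5 of 92 members higher and 0 lower. With this block 11.5% of all symbols were called higher and 10.1% lower, so that the members' share of calls was below the background while their median was above it. The block left 1 residual degree of freedom, and DESeq2 with the same block called 0 members, with a lowest adjusted p of 0.0591, beside 8.49% of all symbols higher and 6.54% lower. With the 6 libraries as separate replicates 8 members were called higher and 0 lower, beside 8.09% and 5.12% of all symbols. With the block added to the 6 libraries 56 were called higher and 4 lower, beside 25.5% and 26.1%, and with replicates 1 and 2 alone 70 and 4, beside 32.6% and 31.4%. These 3 fits count near-duplicates as replicates, so that their p-values are too small.

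Consistency across libraries was more frequent among members than among all symbols. Replicates 1 and 2 are near-duplicates, so a separation of 3 from 3 libraries, here and for single genes, amounts to 2 samples against 2. In 39 of 92 members all 3 PNX libraries were higher than all 3 sham libraries, against 18.8% of all symbols, and in 4 members (Atp5sl, Ndufa7, Sdha and Cox6a2) all 3 were lower, against 17.9%. Within both records PNX was higher in 67 of 92 members, against 36.0% of all symbols, and lower in 10, against 39.3%. The members' median log2 difference was 0.17 in the earlier record and 0.15 in the later one. The members were also lower in the later record than in the earlier one in both groups in 61 of 92 cases, against 37.7% of all symbols, so that the level of many subunits moved with the record as well as with PNX. Of the 92 members, 80 are among the 25% of symbols with the shortest transcripts. The other 4062 symbols with such short transcripts had a median log2 fold change of 0.05, and the 1271 of them that were also among the highest 25% by TPM had 0.09, with 67.7% above 0, 30.1% without overlap on the higher side and 56.1% higher in both records, so that these shares too lay between those of all symbols and those of the members. Among the members, the 80 with such short transcripts had a median of 0.17 and the 12 others 0.09. On the higher side 40% of the 80 and 58.3% of the 12 were without overlap. The part that transcript length and level had in the members' median was not tested.

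**Figure D2:**
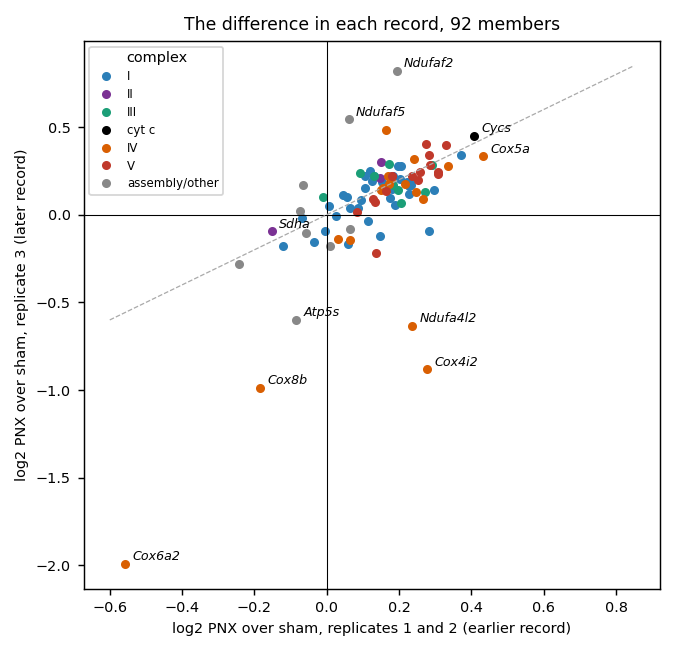
Log2 difference of PNX over sham within the earlier record (replicates 1 and 2, x) and within the later record (replicate 3, y) for the 92 members, colored by complex, with a dashed line where both are equal. Most points lie at the upper right near the line, while Cox4i2 and Ndufa4l2 lie at the lower right.

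Of the 5 members called with the block, Cycs had the largest difference. Its level was 19.7, 18.9 and 16.5 CPM in sham against 25.8, 26.4 and 22.1 CPM in PNX. All PNX libraries were above all sham libraries, and replicate 3 was the lowest of its group in both. The log2 fold change was 0.43 (SE 0.09, adjusted p = 0.0175 by edgeR with the block, 0.429 without). Cycs lies at chr6:50562563-50566569, has processed pseudogenes elsewhere in the genome, and how reads matching both were counted is not given in the sources used here.

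Cox5a, a nuclear-encoded structural subunit of complex IV (chr9:57517328-57532427), was the highest subunit of that complex by fold change. It had 29.3, 29.4 and 30.2 CPM in sham against 41.3, 39.4 and 37.4 CPM in PNX. The sham libraries lay close together and well below the PNX libraries. The log2 fold change with the block was 0.39 (SE 0.09, edgeR adjusted p = 0.0194, and 0.336 without).

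The other 3 called members were subunits of ATP synthase. Atp5g1 (chr11:96072793-96075694) encodes the c subunit of the rotor ring, as do Atp5g2 and Atp5g3. Its level was 34.8, 34.7 and 37.3 CPM in sham against 43.9, 45.0 and 48.3 CPM in PNX. Atp5o (chr16:91925223-91931630), the OSCP of the peripheral stalk, had 43.3, 43.5 and 43.0 CPM in sham against 54.6, 52.0 and 55.9 CPM in PNX. Atp5g3 (chr2:73908447-73912464) had 54.1, 57.6 and 57.7 CPM in sham against 69.4, 68.9 and 68.8 CPM in PNX. In each of the 3 genes the groups did not overlap. Their log2 fold changes with the block were 0.36, 0.34 and 0.28, with edgeR adjusted p of 0.0218, 0.0300 and 0.0441, and 0.379, 0.388 and 0.454 without the block. Atp5g3 lost its call when sham replicate 1 or PNX replicate 1 was left out (blocked adjusted p of 0.0656 and 0.0516). Atp5o shares exons with another gene model and 2 antisense transcripts, and no source used here says that the counts kept strands apart.

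**Figure D3:**
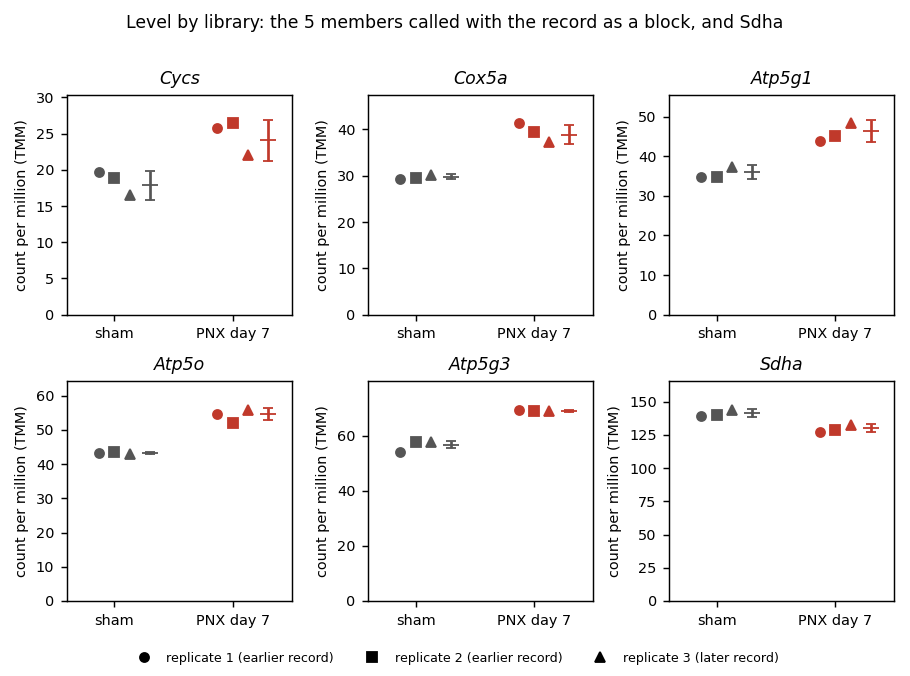
CPM (TMM-scaled) by library for Cycs, Cox5a, Atp5g1, Atp5o, Atp5g3 and, for contrast, Sdha, with sham in grey, PNX day 7 in red and replicates 1, 2 and 3 as circle, square and triangle. Bars beside the points are mean ± SD of 2 samples (mean of replicates 1 and 2, and replicate 3). In the first 5 genes the PNX libraries lie above the sham libraries and in Sdha below them.

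Most members of complex I lay slightly above 0. The fitted log2 fold change was above 0 in 31 of 36 members, with a median of 0.15 (0.06 without sham replicate 3) and a range of −0.15 to 0.36, and 9 of 36 members were higher in all PNX libraries, not far from the 18.8% of all symbols. None was called with the block. The 7 nuclear-encoded core subunits, which carry the flavin and iron-sulfur centers, had a median of 0.08, with 5 of 7 above 0. Of the core, Ndufs7 was lowest at −0.09. The 29 accessory subunits had a median of 0.17, with 26 of 29 above 0. Ndufc1, a small accessory subunit of the membrane arm, was the highest of the complex with 10.3, 10.3 and 8.08 CPM in sham against 13.3, 13.9 and 10.03 CPM in PNX, so that PNX replicate 3 overlapped the sham libraries. Its log2 fold change was 0.36 (SE 0.24), and with the block it had an edgeR adjusted p of 0.0630. Ndufa7, another accessory subunit, went the other way at 93.6, 87.5 and 93.1 CPM in sham against 86.5, 83.2 and 80.7 CPM in PNX, with a log2 fold change of −0.15 (SE 0.12). Its PNX libraries were all below its sham libraries, with counts summed over 4 transcripts.

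The 4 subunits of complex II did not move together. Sdha had 139, 140 and 144 CPM in sham against 127, 129 and 132 CPM in PNX, a log2 fold change of −0.12 (SE 0.12). Sdhb, the iron-sulfur subunit, had 43.6, 43.2 and 40.7 CPM in sham against 48.3, 49.8 and 46.1 CPM in PNX, a log2 fold change of 0.18 (SE 0.13). For Sdhc and Sdhd, which anchor the complex in the membrane and bind heme, the log2 fold changes were 0.22 and 0.20. In Sdhc the libraries read 40.4, 38.7 and 38.3 CPM in sham against 44.9, 44.5 and 46.1 CPM in PNX, and in Sdhd 44.6, 44.5 and 45.0 CPM in sham against 52.4, 50.4 and 51.3 CPM in PNX. Each of the 4 genes had groups that did not overlap, Sdha with PNX lower and the others with PNX higher. Of all symbols, 18.8% had such groups with PNX higher and 17.9% with PNX lower. None of the 4 genes was called with the block (edgeR adjusted p of 0.320 for Sdha and 0.115 to 0.173 for the others).

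All 9 members of complex III had a fitted log2 fold change above 0, with a median of 0.18 (0.11 without sham replicate 3) and a range of 0.05 to 0.29. In 5 of 9 all PNX libraries were above all sham libraries, against 18.8% of all symbols. Uqcrq, a small accessory subunit, was highest with 19.8, 20.1 and 18.7 CPM in sham against 24.2, 25.5 and 22.3 CPM in PNX, a log2 fold change of 0.29 (SE 0.15, edgeR adjusted p = 0.064 with the block). Cyc1, the heme-bearing cytochrome c1, had 40.2, 41.4 and 37.1 CPM in sham against 44.1, 44.4 and 42.8 CPM in PNX, and a log2 fold change of 0.16. The hinge protein gene Uqcrh had a log2 fold change of 0.14. Uqcrc2, a core protein, was lowest at 0.05 and overlapped between the groups.

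Complex IV is given by common subunits and alternative isoforms. Among the 12 common subunits, 11 had a log2 fold change above 0, with a median of 0.19. In 7 of the 12 all PNX libraries were above all sham libraries, against 18.8% of all symbols. Cox4i1 had 197, 192 and 210 CPM in sham against 240, 230 and 225 CPM in PNX, with a log2 fold change of 0.19 (SE 0.13), and it shares exon sequence with Emc8 on the other strand. The exception was Cox7a2l, a factor of supercomplex assembly, at −0.04. Among the 6 alternative isoforms tested, only Cox7a1 lay above 0, and the median was −0.14. This rests on 1 library: without PNX replicate 3, 4 of 6 lay above 0 (Cox4i2 at 0.30, Ndufa4l2 at 0.30 and Cox8b at 0.18 beside Cox7a1). This split into common and alternative forms follows their known expression in tissues, and the difference between the sets has no test.

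**Figure D4:**
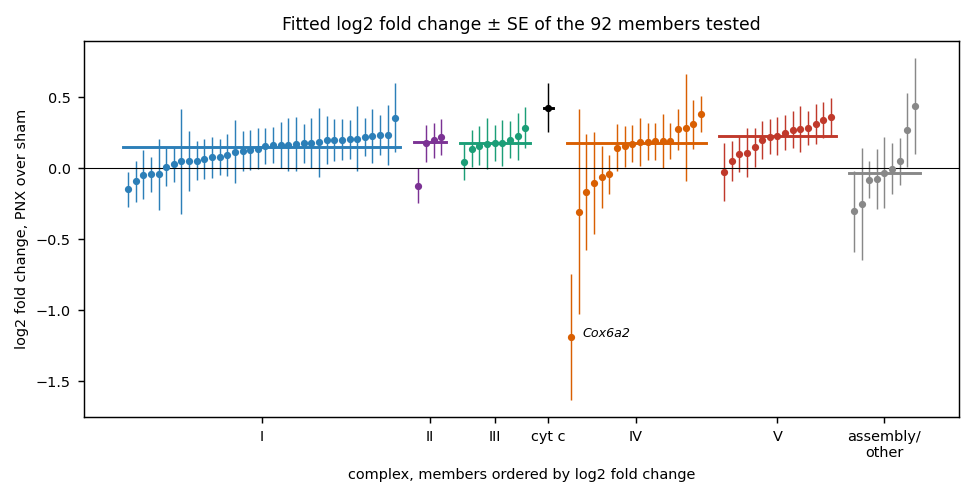
Fitted log2 fold change, PNX over sham (y), with its SE for the 92 members tested, ordered by value within each complex (x). Horizontal bars are the medians, 0.15 for complex I, 0.19 for II, 0.18 for III, 0.43 for Cycs alone, 0.18 for IV, 0.23 for V and −0.03 for assembly and associated factors.

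ATP synthase had the highest median among the complexes, 0.23, and 14 of 15 members lay above 0. In 12 of 15 members all PNX libraries were above all sham libraries, against 18.8% of all symbols. Among the symbols outside the set with short transcripts and high TPM that share was 30.1%. All 5 genes of the F1 head and central stalk had groups that did not overlap, with log2 fold changes of 0.10 to 0.27. Atp5b had 348, 352 and 348 CPM in sham against 410, 397 and 398 CPM in PNX, a log2 fold change of 0.20 (SE 0.14). The 3 c-ring genes were close to each other at 0.36 for Atp5g1, 0.28 for Atp5g2 and 0.28 for Atp5g3. Atp5g2 had 14.8, 15.1 and 17.8 CPM in sham against 18.7, 19.1 and 20.7 CPM in PNX, without overlap, and an edgeR adjusted p of 0.0783 with the block. The peripheral stalk genes ranged from 0.05 for Atp5h to 0.34 for Atp5o. Atp5l, the g subunit, was the only one below 0, at −0.03, with 8.56, 8.57 and 8.64 CPM in sham against 9.27, 9.94 and 7.28 CPM in PNX, and its PNX replicate 3 was the lowest library.

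The 9 assembly and associated factors showed no common direction, with a median log2 fold change of −0.03 and 3 of 9 above 0. Ndufaf2, which acts in complex I assembly, had the highest value at 0.44 (SE 0.34), with 4.23, 4.59 and 2.55 CPM in sham against 5.14, 5.11 and 4.43 CPM in PNX. The value rests on low counts and on sham replicate 3, which was the lowest library. Atp5s, named as an ATP synthase coupling factor, was lowest at −0.30 (SE 0.29), with 3.81, 3.10 and 3.47 CPM in sham against 3.23, 3.46 and 2.25 CPM in PNX. Atp5sl, the factor with the highest count, had 28.6, 29.6 and 31.1 CPM in sham against 28.5, 28.4 and 28.4 CPM in PNX, a log2 fold change of −0.08.

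Alternative isoforms can replace a common subunit of complex IV. Cox4i2, the lung and hypoxia-linked form of subunit 4, was the most abundant of them. On the scale of the main transcript it had 54.3, 60.4 and 55.5 TPM in sham and 70.3, 67.4 and 30.1 TPM in PNX, so that PNX replicate 3 was the lowest of all and the other PNX libraries were the highest. Its share of Cox4i1 plus Cox4i2 was 12.96% ± 0.759 in sham and 10.1% ± 5.03 in PNX (SD, n = 2 samples). With TPM summed over the transcripts of each gene the shares were 7.27% and 5.64%, because Cox4i1 has 2 listed transcripts with nearly equal counts. Ndufa4l2, an isoform of Ndufa4 known as a target of hypoxia signaling, behaved alike, with 27.4, 27.0 and 25.1 TPM in sham and 31.7, 32.2 and 16.1 TPM in PNX. It shares exon sequence with Shmt2 on the other strand.

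Both genes are known as strongly expressed in pericytes, and pericyte markers moved with them in part. Within the earlier record PNX minus sham on the log2 scale was 0.28 for Cox4i2, 0.24 for Ndufa4l2, 0.34 for Higd1b, 0.31 for Notch3 and 0.25 for Pdgfrb. Within the later record the values were −0.88, −0.63, −0.72, −0.59 and −0.45. The 7 pericyte markers, all detected, summed to 261, 261 and 373 CPM in sham against 347, 345 and 307 CPM in PNX. Rgs5, Kcnj8 and Abcc9, of the same list, were higher in PNX in both records, and Cspg4 was higher in the earlier record and near 0 (−0.08) in the later one. The 4 smooth muscle markers summed to 194, 197 and 231 CPM in sham against 252.6, 250.8 and 151.2 CPM in PNX. In bulk samples fewer cells of a type and less RNA per cell cannot be told apart, and the part of these cells in the isoform levels was not tested.

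**Figure D5:**
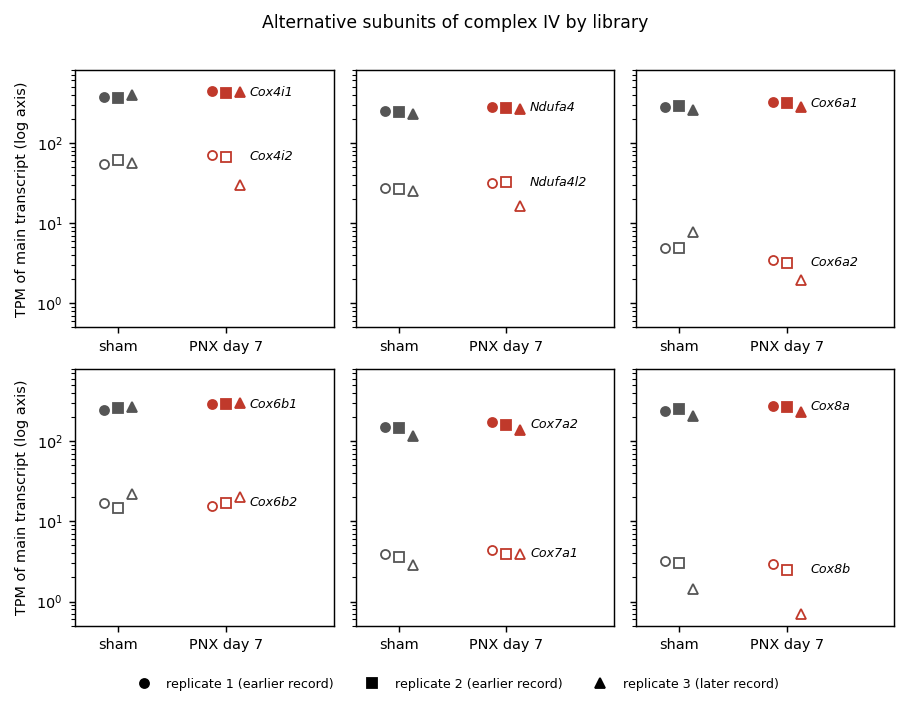
TPM of the main transcript (y, log axis) by library for 6 pairs of common (filled) and alternative (open) subunits of complex IV, with sham in grey, PNX day 7 in red and replicates 1, 2 and 3 as circle, square and triangle. Cox4i2 and Ndufa4l2 are lower in PNX replicate 3 than in every other library, and Cox6a2 is lower in all PNX libraries than in all sham libraries.

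Cox6a2, the heart and skeletal muscle form of subunit 6a, had the largest difference of any member. It had 1.28, 1.28 and 2.05 CPM in sham against 0.915, 0.854 and 0.503 CPM in PNX, with all PNX libraries below all sham libraries. These levels rest on low counts, 103, 92 and 69 in sham and 68, 56 and 15 in PNX. The log2 fold change was −1.19 (SE 0.44, edgeR adjusted p = 0.386) and −1.07 with the block (SE 0.36, adjusted p = 0.0751). The size moved with the record, from −0.56 in the earlier one to −1.99 in the later one, and was −0.53 with replicates 1 and 2 alone. Of the 7 cardiomyocyte markers, all detected, Myh6 was at −1.24, Ryr2 at −1.07 and Actc1 at −0.78, whereas Tnnt2 was at 0.87 and Myl7 at 0.64 on the log2 scale. Their sum was 13.1, 13.1 and 22.9 CPM in sham against 16.0, 15.4 and 14.9 CPM in PNX. The 4 skeletal muscle markers summed to 3.11, 3.31 and 10.1 CPM in sham against 4.40, 4.39 and 6.91 CPM in PNX. The part of either cell type in the Cox6a2 level was not tested. Cox6a2 shares exon sequence with the leukocyte integrin gene Itgad on the other strand.

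Cox6b2, a form known from testis, had 17.1, 14.7 and 21.9 TPM in sham and 15.5, 16.9 and 19.9 TPM in PNX for its main transcript, 6.78% ± 1.17 and 5.76% ± 0.658 of Cox6b1 plus Cox6b2. Summed over its 6 transcripts the shares read 31.7% and 28.1%, so that the share depended strongly on whether transcripts were summed. Cox7a1, a muscle form, made up 2.41% ± 0.0667 of Cox7a1 plus Cox7a2 in sham and 2.63% ± 0.262 in PNX. Cox8b, another muscle form, made up 0.969% ± 0.407 of the Cox8 genes in sham and 0.652% ± 0.488 in PNX. Among the c-ring genes Atp5g3 supplied 63.6% ± 1.49 in sham and 63.0% ± 1.51 in PNX on the scale of the main transcript, Atp5g2 19.2% ± 1.43 and 18.9% ± 0.829, and Atp5g1 17.2% ± 0.0529 and 18.0% ± 0.682. On this scale each share differed by less than 1 percentage point between the groups.

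Other mitochondrial gene lists were read in the same fits, where again no gene was called in the 4 samples without the block. With the block edgeR called 11.5% of all symbols higher and 10.1% lower, and the calls in these lists stand beside those shares. Mitochondrial ribosomal proteins, which translate the subunits encoded in mitochondria, had a median log2 fold change of 0.12, with 66 of 77 above 0. With the block 3 of 77 were called higher by edgeR, a smaller share than the 11.5% of all symbols. They were Mrpl51 at 0.55, Mrpl52 at 0.51 and Mrpl17 at 0.45 (edgeR adjusted p of 0.00795, 0.0173 and 0.0203). Carriers of the inner and outer membrane had a median of 0.21, with 13 of 14 above 0 and 3 of 14 called higher with the block. Vdac1, the main channel of the outer membrane, was called higher at 0.41 (adjusted p = 0.0116), with 73.4, 72.3 and 69.4 CPM in sham against 96.5, 96.8 and 92.2 CPM in PNX. Slc25a13, the aspartate-glutamate carrier, was called higher at 0.71, and Ucp1, the uncoupling protein of brown fat, was called higher from a very low level, at 0.0124 to 0.0891 CPM in sham against 0.619 to 1.17 CPM in PNX. Of the adipocyte markers, Adipoq was at 0 to 0.0140 CPM in sham against 0.570 to 1.42 CPM in PNX and Plin1 was at 0.174 to 0.416 CPM in sham against 0.939 to 1.21 CPM in PNX. Cidec, the most abundant of that list, was lower in both records, with 29.8, 28.6 and 55.5 CPM in sham against 25.5, 24.9 and 39.0 CPM in PNX (log2 fold change −0.36 with the block, edgeR adjusted p = 0.0364). The 5 adipocyte markers, Cfd and Lep included, summed to 30.2, 29.0 and 56.0 CPM in sham against 39.0, 39.7 and 41.5 CPM in PNX. The 3 brown adipocyte markers, Ucp1 among them, summed to 0.422, 0.600 and 0.772 CPM in sham against 1.40, 1.65 and 2.25 CPM in PNX. The part of fat cells in the Ucp1 counts was not tested. Assembly factors outside the name rule (median 0.06, 24 of 37 above 0, 0 called), the tricarboxylic acid cycle (median 0.04, 13 of 18 above 0) and other electron donors to ubiquinone (median 0.02, 9 of 17 above 0) lay closer to the median of all symbols. Without sham replicate 3 the medians of the ribosomal, assembly factor and electron donor lists were 0.07, −0.04 and −0.03, and without PNX replicate 3 those of the ribosomal, assembly factor, cycle and carrier lists were 0.20, 0.14, 0.09 and 0.13. Of these, Idh2, the mitochondrial NADP isocitrate dehydrogenase, was called higher at 0.30 (adjusted p = 0.0413) and Prodh, proline dehydrogenase, lower at −0.58 (adjusted p = 0.0165).

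Regulators of mitochondrial biogenesis did not follow the subunits. Of 20 regulators 5 lay above 0, and the median was −0.08 (−0.16 without sham replicate 3, and −0.05 with replicates 1 and 2 alone). Ppargc1a, the coactivator PGC-1alpha, was lower after PNX, with 3.995, 4.52 and 5.70 CPM in sham against 1.67, 2.16 and 2.48 CPM in PNX, a log2 fold change of −1.18 with the block (SE 0.17, edgeR adjusted p = 0.00371, and 0.215 without). The PNX libraries were all below the sham libraries. Ppargc1a was 1 of 20 regulators called lower with the block, beside 10.1% of all symbols, and 0 were called higher. Nrf1, Tfam and Gabpa had log2 fold changes of −0.11, −0.17 and −0.08, and none of them was called. Among 8 proteins associated with the chain, 1 was called higher and 1 lower with the block. Atpif1, the inhibitor of ATP synthase, was higher at 0.50 (edgeR adjusted p = 0.00721), with 25.01, 24.6 and 27.1 CPM in sham against 35.8, 35.7 and 37.4 CPM in PNX. Chchd10, a protein of the intermembrane space, was lower at −1.08 (adjusted p = 0.00912), with 12.1, 13.02 and 14.6 CPM in sham against 7.93, 7.70 and 4.90 CPM in PNX.

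Other cell types and cell division moved with the groups. The 4 cell division markers (Mki67, Top2a, Cdk1 and Ccnb1) summed to 34.9, 35.4 and 66.2 CPM in sham against 292, 287 and 455 CPM in PNX. Macrophage markers summed to 227, 226 and 438 CPM in sham against 555, 560 and 662 CPM in PNX, and club cell markers to 2372, 2383 and 4308 CPM in sham against 1169, 1129 and 1113 CPM in PNX. Every cell type listed carries a respiratory chain, and the part of these shifts in the subunit levels was not tested.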

How the data were processed

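Per the labels and the study's methods, the authors prepared stranded mRNA libraries, sequenced them in pairs and aligned the reads to mm10. The submitters' processing notes name STAR. For each library the authors deposited a count, an FPKM and a TPM value for each of 33068 RefSeq transcripts. The deposited counts were whole numbers and unnormalized. The FPKM values that the authors deposited served only to rank transcript lengths (count over FPKM), and the deposited TPM values only to compare levels between genes. The counting rule is not given in the sources used here.

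Counts of the 115 member transcripts and of all others were summed by symbol. Replicates within a group were compared on symbols that list 1 transcript and reach 20 counts in the pair, and replicates 1 and 2 were summed to 1 sample. PNX was compared with sham over all symbols by the quasi-likelihood test of edgeR 4.0.16 (R 4.3.3, TMM scaling, filterByExpr, Benjamini-Hochberg, called at an adjusted p under 0.05, any fold). DESeq2 1.42.0 and limma 3.58.1 (voom) were alternatives. The SE is the size of the log2 fold change over the square root of the F statistic. CPM are TMM-scaled. The labels put the re-used mark on replicates 1 and 2 of both groups, which was read as a pairing by record. The difference between records correlated between sham and PNX across 16598 genes (Pearson's r = 0.540, Spearman's rho = 0.663, where genes are not independent replicates). The fit with the record as a replicate block is therefore given where it changes a call.

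Members and lists were chosen with earlier results of these data known. Named members were those called in the fits without and with the block, the highest by TPM and by log2 fold change and the lowest by log2 fold change in each complex, the alternative isoforms, complex II, Cyc1 and Cycs, and members under the filter. Of other lists the called genes were named, up to 5. Other members, markers and regulators named were chosen after their values were seen. Positions are from RefSeq (GRCm38.p6) and exon overlaps from GENCODE vM21. Of 94 members, 32 share exon sequence with another gene, 26 of them with a protein-coding one. Fits were tested on simulated data.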

Additional observations from a re-analysis of the deposited data

Results flagged for a closer look

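Cox4i2 and Ndufa4l2 differed between the records in the direction of the PNX effect. In the earlier record the log2 difference of PNX minus sham was 0.28 for Cox4i2 and 0.24 for Ndufa4l2, and both PNX libraries were above both sham libraries. In the later record it was −0.88 and −0.63. The later record holds 1 library per group, so the difference between the records was not tested.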

How the results depend on the processing

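With the record as a replicate block, 5 members were called higher and 0 lower, against 0 and 0 without it. The count stayed at 5 with the block under DESeq2 size factors or upper-quartile scaling and was 6 with library size alone. Of all 16598 symbols tested, 1761, 1777 and 1848 were called higher there, a larger share than of the members. In blocked fits without 1 of replicates 1 and 2 of either group, an alternative chosen after seeing the data, the count of members was 4 to 6 (5 and 6 without sham replicates 1 and 2, then 4 and 6 for the PNX replicates). Of all symbols 1707 of 16096, 1860 of 16180, 1587 of 16065 and 1888 of 16117 were called higher in that order, again a larger share. In those 4 fits the median of complex III ranged from 0.16 to 0.19 (0.162 and 0.191 for sham replicates 1 and 2, and 0.163 for PNX replicate 1), that of complex I was 0.138 without PNX replicate 1, and that of the assembly factors was −0.067 and −0.00302 without PNX replicates 1 and 2. There Cox6b2 was at 0.018 without sham replicate 1, and Atp5l at 0.00435 without PNX replicate 1. The 6 libraries as separate replicates gave 8 calls higher and 0 lower without the block, and 56 and 4 with it. Replicates 1 and 2 alone gave 70 and 4. These 3 fits take near-duplicates as replicates, and their p-values are too small. The block changed no other call of a member.

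In the other fits without a block, 0 members were called under every alternative run, the study's thresholds included, and without each library in turn. The members' median was 0.193 with replicates 1 and 2 alone and 0.096 to 0.213 without 1 library. Complex I had a median of 0.158 and 0.160 with 6 libraries without and with the block, 0.158 with limma-voom, 0.139 and 0.138 with upper-quartile scaling without and with the block, 0.163 with replicates 1 and 2 alone, and 0.064 to 0.198 without 1 library. Complex III had 0.188 and 0.189, 0.166 and 0.164, 0.208, and 0.112 to 0.260 in the same fits (limma-voom left out). Complex V had 0.277 with replicates 1 and 2 alone. Without 1 library the ranges were 0.136 to 0.252 for complex IV, 0.318 to 0.532 for Cycs and −0.065 to 0.070 for the assembly factors. With the transcript of the highest total the members' share of counts was 0.534% in sham and 0.592% in PNX, and without the 50 symbols of the highest mean count 0.458% and 0.503%. With TPM summed over transcripts, Atp5g1 supplied 29.2% and 30.4% of the c ring in sham and PNX (28.9% to 29.5% in sham without 1 library), Atp5g2 16.4% and 16.1%, and Atp5g3 54.4% and 53.5%. With the main transcript they supplied 17.2% and 18.0%, 19.2% and 18.9%, and 63.6% and 63.0%. Cox4i2 went from 7.27% and 5.64% to 12.96% and 10.1%, and Cox6b2 from 31.7% and 28.1% to 6.78% and 5.76%.

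Among the named members 5 turned sign in at least 1 alternative, and among all 92 members 6 had another sign with the 6 libraries. Atp5l (−0.03) was at 0.044 and 0.056 with 6 libraries without and with the block, 0.033 with limma-voom, and 0.163 with replicates 1 and 2 alone. Leaving out 1 library put it between −0.055 and 0.146 (0.00436 without PNX replicate 1, and the highest without PNX replicate 3). Cox4i2 (−0.17) was at 0.0070 with 6 libraries, 0.300 on the earlier record only, and −0.21 to 0.304 when 1 library was left out, positive without PNX replicate 3. Ndufa4l2 (−0.11) was at 0.035 with 6 libraries, with or without the block, 0.262 on the earlier record only, and −0.15 to 0.297 when 1 library was left out, positive without PNX replicate 3. Cox6b2 (−0.06) was at 0.062 on the earlier record only and −0.21 to 0.193 when 1 library was left out, positive without sham replicate 3, and Cox8b (−0.31) at −0.65 to 0.183, positive without PNX replicate 3. The cause of these shifts was not tested beyond the library or setting named. With n = 2 samples per group, the SE was at least as large as the log2 fold change in 41 of 92 members.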
